A study of Mus musculus with 9 samples.

Results

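High-numbered Zfp genes are mouse genes whose symbol is Zfp followed by a 3-digit number of 700 or more, with or without a letter. 133 symbols of the count table fit this name, and 131 of them had 90 or more counts summed over the 9 libraries, out of 16636 genes in the table. The 2 symbols left out, Zfp853 and Zfp872, had 17 and 19 counts in all, and the 2 members nearest the limit, Zfp711 and Zfp784, had 201 and 241. The symbol and the sum over all groups chose the members, so no difference between groups is part of the rule. The members were, however, chosen with earlier results of these data known. All 131 members also passed the filter on low counts used for testing.

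RNA was sequenced from wild-type E14 mouse embryonic stem cells, a line grown here on fibronectin without feeder cells, in medium with the MEK inhibitor PD0325901, the GSK3 inhibitor CHIR99021 and LIF (the naive 2i/LIF state). There were 3 libraries each of untreated cells, of cells given a luciferase siRNA (siLuc) and of cells given an siRNA to Stag3 (siStag3), a gene of the cohesin complex. Both siRNAs were lipofected in 2 rounds of 50 pmol over 48 hours, and untreated cells had no transfection, so siLuc against untreated compares transfection and siRNA together with nothing. The series calls the libraries biological replicates of 1 line. The column names add a set and an experiment that the labels do not define. Each group has 2 libraries of Set 1, from experiments 1 and 3, and 1 library of Set 3, which is from experiment 5 in untreated and siStag3 cells and from experiment 1 in siLuc cells.

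Most of these genes code for KRAB zinc finger proteins. In such a protein a row of C2H2 fingers reads DNA, and the KRAB domain at the other end binds TRIM28, which brings in the histone methyltransferase SETDB1 and heterochromatin proteins. In embryonic stem cells these proteins are known for silencing retrotransposons. The genes lie in tandem clusters that grew by duplication, so neighbours are often close copies of each other.

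A KRAB A-box was found in the coding sequence of 108 members and not in 21, while 2, Zfp978 and Zfp986, have no coding transcript in the annotation used (GENCODE M21, GRCm38). The 129 coding members had a median of 11 C2H2 fingers, and the highest number was 30. Members lie on 16 chromosomes, and 66 of them lie in 6 runs of 8 or more with gaps of at most 1000 kb. The largest runs are on chromosome 4 (16 members), chromosome 17 (13), chromosome 13 (12) and chromosome 2 (9), and chromosome 17 and chromosome 7 each have a run of 8.

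Low GC content was a shared property that the name does not use. The median member transcript was 40.0% G and C, with quartiles of 38.1% and 45.1%, against a median of 50.0% over 14226 tested genes. KRAB members had a median of 39.6% and members without KRAB 53.9%. The code of fingers was taken only where a finger had 21 residues and a linker of the exact letters TGEKP after it. Over the 691 such fingers with their linkers, from 108 members, the median was 39.7%, with quartiles of 37.2% and 43.6%. Members without KRAB had a median of 0 such linkers and KRAB members one of 6, so members without KRAB weigh little in this value. Each line below is the code of 1 finger, an example chosen to show an AT-rich and a GC-rich member beside 2 of the most abundant ones. The 63 bases from the first cysteine codon to the last histidine codon of the finger are in lower case and the 15 bases of the linker to the next finger in capitals, 5′ to 3′ on the coding strand.
Zfp938: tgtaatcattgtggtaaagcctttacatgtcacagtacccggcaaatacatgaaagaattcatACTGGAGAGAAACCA
Zfp748: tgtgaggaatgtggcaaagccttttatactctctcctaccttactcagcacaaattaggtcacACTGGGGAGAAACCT
Zfp980: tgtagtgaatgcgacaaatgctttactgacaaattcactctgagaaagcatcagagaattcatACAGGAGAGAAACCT
Zfp990: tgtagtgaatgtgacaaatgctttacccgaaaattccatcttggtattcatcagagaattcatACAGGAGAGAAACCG
Zfp787: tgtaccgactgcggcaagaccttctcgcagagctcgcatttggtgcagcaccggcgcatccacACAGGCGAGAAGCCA
The stretches of Zfp938, Zfp980 and Zfp990 are each 38.5% G and C, that of Zfp748 44.9% and that of Zfp787, a member without KRAB, 61.5%. These genes lie on chromosomes 10 (Zfp938), 13 (Zfp748), 4 (Zfp980 and Zfp990) and 7 (Zfp787).

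Close copies limit what a count can mean for 1 gene. The median member shared 10.9% of the 31-base sequences of its transcripts with another gene. Zfp708, Zfp965, Zfp967 and Zfp968 shared 100% and so cannot be told from a copy by any 31 bases, and 64 members shared under 10%. Values of the chromosome 4 run (median 74.6% shared) and of the chromosome 2 run (93.7%) are therefore uncertain gene by gene.

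Libraries held 29332436 to 44527534 counts, and the members took 0.493% to 0.833% of them. Stag3 itself was at 13.5 to 15.6 CPM (counts scaled to a fixed library total) in siStag3 libraries, 22.5 to 26.7 in siLuc and 24.1 to 28.6 in untreated cells (siStag3 against siLuc: log2 fold change -0.71, SE 0.0722, edgeR adjusted p 0.00205). 10 of 10 stem cell markers, Pou5f1 and Nanog among them, were above 1 CPM in every library and summed to 5870 to 6250 CPM. Primitive endoderm markers summed to 1.85 to 3.81 CPM, fibroblast markers to 1.54 to 2.78, genes of 2-cell-like cells to 0.997 to 2.25 and neural markers to 2.84 to 4.93. Libraries differed in how counts tilted with GC content. Across 14226 genes the Spearman correlation of a library's log2 deviation from the gene mean with GC content was 0.29, 0.54 and 0.60 in untreated Set 1 experiment 1, untreated Set 3 experiment 5 and siStag3 Set 3 experiment 5. It was negative in the other libraries, at -0.27 in untreated Set 1 experiment 3, between -0.43 and -0.10 in siLuc, and at -0.43 and -0.54 in siStag3 of Set 1. Each result below is therefore given with a GC correction beside it where this matters, in which the median deviation of genes of like GC content is removed from each library.

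The members ranged in level from 0.655 to 670 CPM, with a median of 19.3 CPM. Levels between genes are compared per kilobase of transcript, where the median member was at 5.25 CPM per kb and the median tested gene at 6.15. The 5 highest members were Zfp990 (188 CPM per kb), Zfp980 (167), Zfp934 (125), Zfp978 (124) and Zfp988 (87.9). All of these but Zfp934, of chromosome 13, belong to the chromosome 4 run, a cluster known for silencing retrotransposons. That run had a median of 69.9 CPM per kb, above the medians of the chromosome 2 (7.0), chromosome 13 (4.27) and chromosome 17 (4.05) runs. Per library the order of the top genes was not settled. Zfp990 was at 367, 651 and 264 CPM in untreated libraries (Set 1 experiments 1 and 3, then Set 3, an order kept in every list below), 691, 654 and 709 in siLuc and 746, 777 and 293 in siStag3. The spread within untreated and siStag3 cells was wider than the gap from Zfp990 to its neighbours in the order. KRAB members with known roles were lower. Zfp809, which binds the primer binding site of murine leukemia virus and silences it, was at 33.8 CPM per kb. Zfp932, a repressor of endogenous retroviruses that shares 53.0% of its 31-base sequences with its paralog Gm15446, was at 13.1. Zfp819, linked to repression of retrotransposons in pluripotent cells, was at 10.1 and Zfp708, which silences the RMER19B retrotransposon, at 1.25. Among members without KRAB, Zfp706, a small protein with 1 finger that promotes exit from the pluripotent state, was at 58.5 CPM per kb and Zfp703, a corepressor with no C2H2 finger found, at 0.283.

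The knockdown comparison asks what Stag3 siRNA does beyond the control siRNA. In siStag3 against siLuc, none of the 131 members passed the test with the set as a covariate, where 0.0281% of all 14246 genes did (4 genes, 0.0140% higher and 0.0140% lower, edgeR, adjusted p under 0.05). DESeq2 also called 0, and 5 members had an unadjusted edgeR p under 0.05. The median member difference was -0.12 on the log2 scale and 18 members lay above 0, beside a median of -0.005 over all genes and of -0.07 over the 3227 genes whose GC content lies between the quartiles of the members. With the GC correction the median was -0.05, with 40 above 0 and again 0 past the threshold, beside 0.442% of all genes. The sign of the median differed by set: within Set 1 it was 0.04 with 84 of 131 above 0, and within Set 3, with 1 library per group and siLuc from another experiment, -0.43 with 17 above 0. On leaving out siLuc Set 3 experiment 1 or siStag3 Set 3 experiment 5 the median was 0.01. In bulk RNA, fewer cells of a type and less RNA per cell cannot be told apart.

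The 3 members with the smallest p in this comparison did not pass. Zfp704 was at 140, 153 and 131 CPM in siLuc and 135, 131 and 107 in siStag3. The groups overlap by the siLuc library of Set 3 (log2 fold change -0.19, SE 0.0636, edgeR adjusted p 0.465). Zfp963 was at 5.09, 4.61 and 4.73 CPM in siLuc and 3.54, 4.25 and 3.47 in siStag3 (-0.36, SE 0.123, edgeR adjusted p 0.480). Zfp867 was at 9.49, 8.20 and 7.94 CPM in siLuc and 7.42, 7.12 and 6.53 in siStag3 (-0.28, SE 0.103, edgeR adjusted p 0.513). For Zfp963 and Zfp867 every siStag3 library lay below every siLuc library, while untreated cells, at 4.05 to 4.44 and 6.88 to 7.57 CPM, overlapped the siStag3 values. Of the named repressors, Zfp809 differed by -0.13 (SE 0.0712), Zfp819 by -0.09 (SE 0.0686), Zfp932 by -0.09 (SE 0.141) and Zfp982, a member of the chromosome 4 run linked to expression of stem cell genes, by -0.23 (SE 0.273), none past the threshold (edgeR adjusted p 0.667 to 0.883). Zfp708 differed by -0.44 (SE 0.240, edgeR adjusted p 0.694), Zfp703 by -0.50 (SE 0.270, edgeR adjusted p 0.673) and Zfp706 by -0.03 (SE 0.0616, edgeR adjusted p 0.900).

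In siLuc against untreated, 4 of 131 members rose and none fell, beside 4.20% of all genes past the threshold in either direction, 1.65% higher and 2.55% lower (edgeR). The 4 are Zfp748 and Zfp953, both of the chromosome 13 run, Zfp938 of chromosome 10 and Zfp850 of chromosome 7, each a KRAB member that shares under 10% of its 31-base sequences. Zfp748 was at 18.8, 22.5 and 14.8 CPM in untreated cells (18.7 ± 3.86, SD, n = 3) and at 28.5, 27.9 and 24.3 in siLuc (26.9 ± 2.27). All siLuc libraries lay above all untreated ones (log2 fold change 0.54, SE 0.112, edgeR adjusted p 0.0237). Zfp938 was at 7.88, 10.8 and 7.35 CPM in untreated cells and 12.5, 11.9 and 13.1 in siLuc, again without overlap (0.54, SE 0.139, edgeR adjusted p 0.0485). For Zfp850 and Zfp953 the groups overlapped: the siLuc library of Set 3 lay below the highest untreated library. Zfp850 was at 56.5, 64.5 and 39.7 CPM in untreated cells and 73.1, 71.4 and 57.8 in siLuc (0.35, SE 0.0886, edgeR adjusted p 0.0430). Zfp953 was at 14.8, 16.6 and 11.2 CPM in untreated cells and 21, 19.8 and 15.5 in siLuc (0.41, SE 0.108, edgeR adjusted p 0.0498).

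The 4 calls stood near the threshold. None was made without the set covariate, and 1 member was called with set and experiment as a block. 0 were called without untreated Set 3 experiment 5, without siLuc Set 1 experiment 1 or without siLuc Set 3 experiment 1. Without untreated Set 1 experiment 1, 1 member was called, and it was none of the 4 (their edgeR adjusted p 0.101 to 0.186). Without siStag3 Set 1 experiment 1, Zfp748 alone was called. Without siStag3 Set 3 experiment 5, which is in neither group but enters the shared spread, 29 were called. DESeq2 and a fit of only the 6 libraries compared each called 24 (22 higher, 2 lower). The share of all genes called in these other fits is not given here, so the member counts have no measure beside them.

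**Figure D1:**
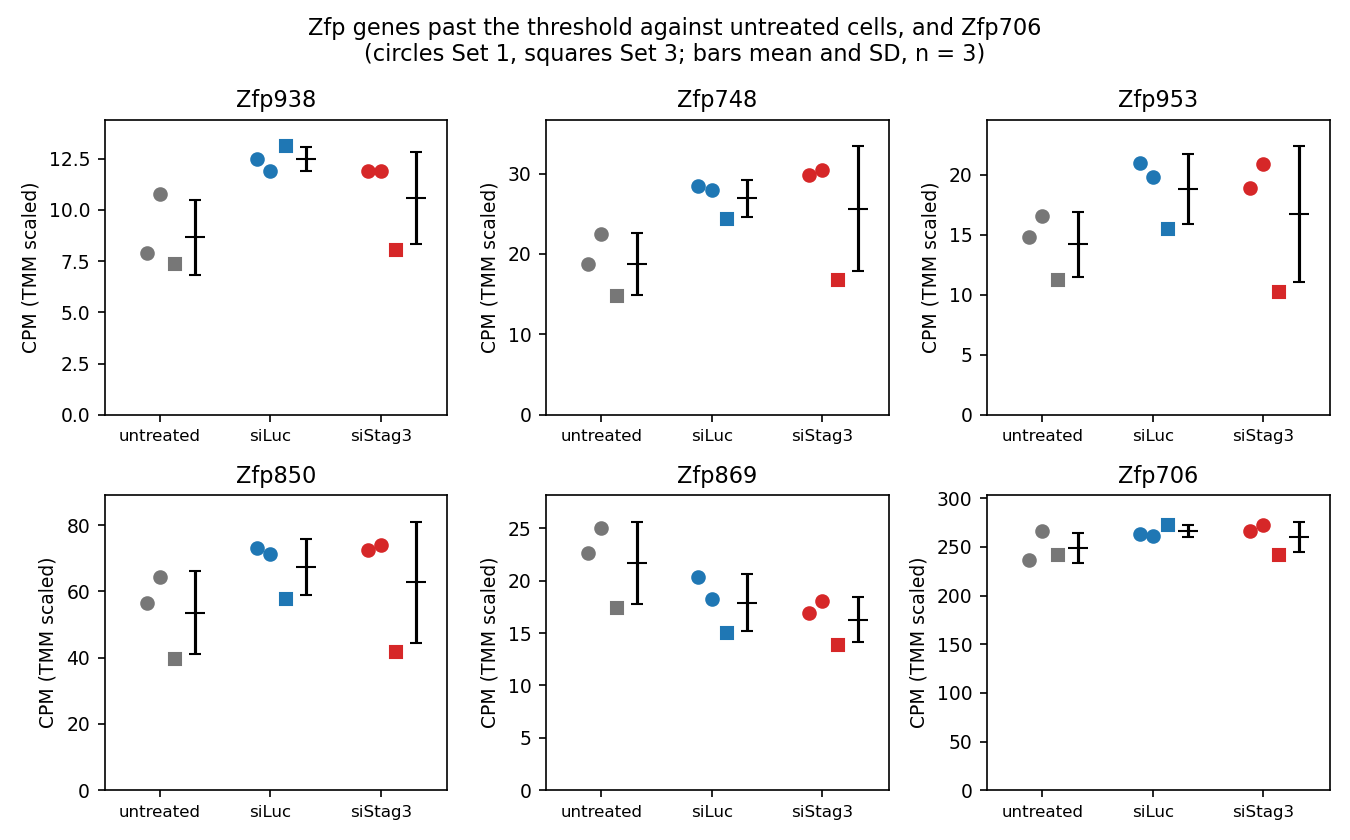
CPM per library (vertical axis, from 0) of the 5 members past the threshold against untreated cells and of Zfp706, by group (horizontal axis), with circles for Set 1, squares for Set 3 and bars for mean ± SD (n = 3). For Zfp748 the siLuc points, 24.3 to 28.5 CPM, lie above the untreated points, 14.8 to 22.5 CPM, and in siStag3 cells the Set 3 square, at 16.7 CPM, lies apart from the circles at 29.8 and 30.4 CPM.

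As a list, the members' median in siLuc against untreated was 0.22 and 107 of 131 lay above 0, beside a median of -0.002 over all genes. The 3227 genes of like GC content had a median of 0.15 with 2601 above 0, and the 246 other Zfp genes tested one of 0.09. The median was 0.12 within Set 1 and 0.36 within Set 3. KRAB members had a median of 0.25 and the 21 members without KRAB one of -0.06, which were 0.06 and -0.01 with the GC correction. With the GC correction the member median was 0.05 with 85 above 0, and 13 members passed, 7 higher and 6 lower, beside 6.97% of all genes, 3.19% higher and 3.78% lower. These 13 are named after their values were seen. Zfp708 (0.70, edgeR adjusted p 0.0110), Zfp947 (0.57, 0.00799), Zfp750 (0.42, 0.0347), Zfp748 (0.35, 0.00119), Zfp995 (0.34, 0.0348), Zfp938 (0.30, 0.0317) and Zfp850 (0.16, 0.0308) were higher in siLuc after the correction. Zfp973 (-0.44, edgeR adjusted p 0.0309), Zfp869 (-0.41, 0.000711), Zfp790 (-0.32, 0.0475), Zfp967 (-0.26, 0.00870), Zfp970 (-0.20, 0.0335) and Zfp961 (-0.15, 0.0335) were lower. Zfp967, Zfp970 and Zfp973 are all of the chromosome 2 run, whose counts are shared among copies. Of the rises, Zfp708, Zfp947 and Zfp995 shared 100%, 36.7% and 39.2% of their 31-base sequences with other genes. Zfp748, Zfp750, Zfp850 and Zfp938 shared under 10%. Zfp953 was at 0.18 after the correction and no longer past the threshold (edgeR adjusted p 0.137). Zfp708 was at 1.80, 3.28 and 1.58 CPM in untreated cells and 4.17, 3.81 and 4.44 in siLuc, without overlap. Before the correction it differed by 0.94 (SE 0.245, edgeR adjusted p 0.0546). The retrovirus repressors Zfp809 (-0.02, SE 0.0707), Zfp819 (0.08, SE 0.0681) and Zfp932 (0.25, SE 0.141) did not pass (edgeR adjusted p 0.268 to 0.884).

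In siStag3 against untreated, which shares the untreated libraries with the comparison above, Zfp869 of chromosome 8 was the 1 member past the threshold, and it fell, beside 2.53% of all genes in either direction, 1.46% lower and 1.07% higher. It was at 22.7, 25 and 17.4 CPM in untreated cells (21.7 ± 3.93, SD, n = 3) and at 16.9, 18.1 and 13.9 in siStag3 (16.3 ± 2.16). Each siStag3 library lay below the untreated library of its set and experiment, though the groups overlap by the untreated library of Set 3. The fitted difference was -0.41 on the log2 scale (SE 0.0774, edgeR adjusted p 0.0127), or -0.49 after the GC correction (edgeR adjusted p 0.000124). In siLuc Zfp869 was at 20.4, 18.3 and 15 CPM, -0.28 from untreated cells (SE 0.0768, edgeR adjusted p 0.0561). The call ended without the set covariate, and on leaving out untreated Set 1 experiment 3 (adjusted p 0.0679), untreated Set 3 experiment 5 (0.0642) or siStag3 Set 1 experiment 1 (0.121, edgeR). Next by p were Zfp748 (0.43, SE 0.113, edgeR adjusted p 0.0684) and Zfp790 (-0.38, SE 0.103, edgeR adjusted p 0.0787). The member median was 0.09 with 92 above 0, at 0.14 within Set 1 and -0.03 within Set 3, and the median over all genes was -0.01. With the GC correction it was 0.01 and 6 members passed beside 6.75% of all genes, 3.30% higher and 3.45% lower: Zfp748 and Zfp729b higher, and Zfp869, Zfp973, Zfp790 and Zfp809 lower. For Zfp809, at 72.6, 64.7 and 52.5 CPM in untreated cells and 61.8, 63.8 and 45.5 in siStag3, the difference was then -0.20 (edgeR adjusted p 0.0368) against -0.15 before it (SE 0.0709, edgeR adjusted p 0.295). In Set 1 alone 9 members were called, 8 of them higher. Without siStag3 Set 3 experiment 5 there were 13, 11 of them higher, and without siLuc Set 3 experiment 1 there were 2. For these fits the share of all genes called is not given here.

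**Figure D2:**
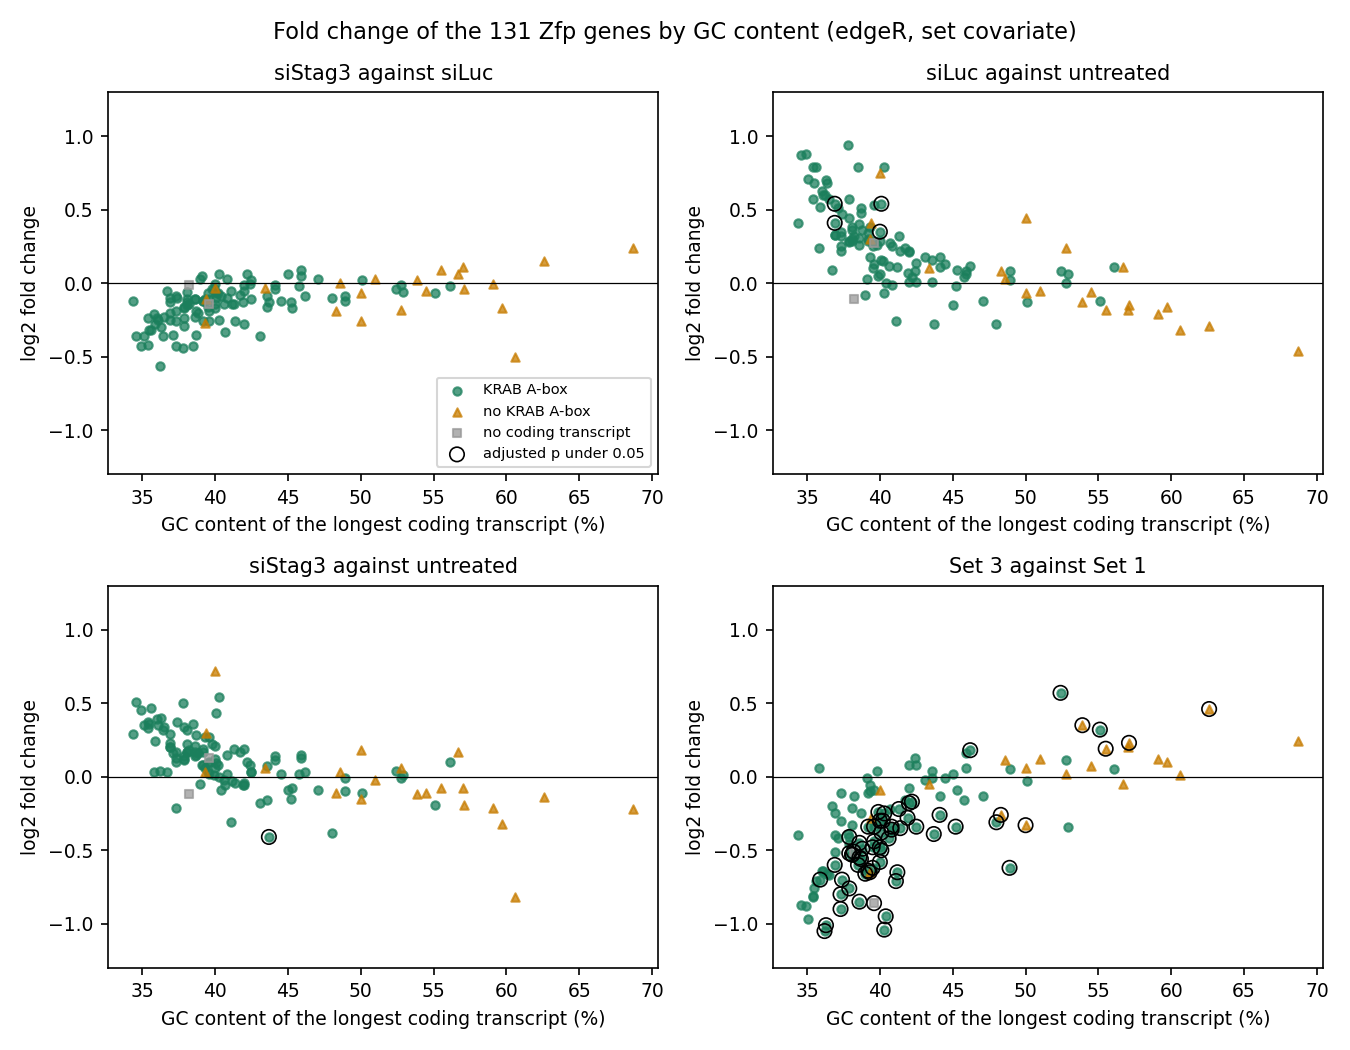
Log2 fold change (vertical axis) of each of the 131 members against the GC content of its transcript in percent (horizontal axis) in the 4 comparisons, with circles for KRAB members, triangles for members without KRAB, squares for the 2 without a coding transcript and rings for an edgeR adjusted p under 0.05. Members of low GC content lie above 0 in siLuc against untreated, where Spearman's rho is -0.78, and below 0 in Set 3 against Set 1, where it is 0.72.

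The fold changes of the members ordered by GC content in all 4 comparisons. Spearman's rho across the 131 members was 0.58 in siStag3 against siLuc (Pearson's r 0.49), -0.78 in siLuc against untreated (-0.70), -0.69 in siStag3 against untreated (-0.62) and 0.72 in Set 3 against Set 1 (0.69). The members share libraries, and comparisons share groups, so these are descriptions. Over 14226 tested genes the same rho was 0.38, -0.50, -0.32 and 0.49. After the correction, which brought all genes to between 0.01 and 0.04, the members kept 0.27, -0.51, -0.44 and 0.39. The share of 31-base sequences held in common with other genes gave a rho of -0.24, 0.36, 0.34 and -0.54 in the same order, and -0.05, 0.19, 0.17 and -0.33 after the correction. The number of fingers (129 members) gave -0.15, 0.25, 0.25 and -0.28. Transcript length gave a rho of 0.05 to 0.12. What GC content contributes to the differences between groups was not tested beyond this correction.

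The largest differences among members were between the sets. In Set 3 against Set 1, 56 members were lower and 7 higher, beside 42.7% of all genes past the threshold, 21.2% lower and 21.4% higher (edgeR). The median member difference was -0.30. Genes of like GC content had a median of -0.20, with 1360 of 3227 lower and 130 higher. With the GC correction the member split was 35 lower and 18 higher, with a median of -0.09, beside 20.8% and 20.7% of all genes (41.5% in all). Of the 108 KRAB members 51 were lower and 3 higher, and of the 21 without KRAB 3 were lower and 4 higher. After the correction the KRAB members were split into 31 lower and 15 higher, and those without KRAB into 3 and 3. By run, 10 of 12 members of the chromosome 13 run were lower, 7 of 9 of the chromosome 2 run, 5 of 16 of the chromosome 4 run and 4 of 13 of the larger chromosome 17 run, and none of these runs had a member higher. In the same order 6 of 12, 5 of 9, 3 of 16 and 3 of 13 were lower after the correction, and the chromosome 4 run and the larger chromosome 17 run each had 1 member higher. The count of 63 was 36 without untreated Set 3 experiment 5, 38 without siStag3 Set 3 experiment 5 and 94 without siLuc Set 3 experiment 1. For these fits, too, the share of all genes called is not given here.

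The 8 largest falls among members past the threshold came from the chromosome 2 run (Zfp965, Zfp968, Zfp971 and Zfp966), the chromosome 4 run (Zfp978, Zfp982 and Zfp989) and chromosome 13 (Zfp808). Zfp971, the one with the smallest p, was at 12, 11.3, 11.5, 11.3, 12.4 and 12.6 CPM in the 6 Set 1 libraries and at 6.80, 7.21 and 4.39 in Set 3 (untreated, siLuc, siStag3), so the sets do not overlap (-0.95, SE 0.127, edgeR adjusted p 0.000108). Zfp978 ran from 156 to 202 CPM in Set 1 and was at 92.5, 129 and 82.9 in Set 3 (-0.86, SE 0.116, edgeR adjusted p 0.000480). Zfp989 ran from 58.8 to 74.6 CPM in Set 1 and was at 35.7, 56.8 and 31.1 in Set 3 (-0.80, SE 0.148, edgeR adjusted p 0.00362). These 3 members remained lower and past the threshold after the GC correction, at -0.69, -0.60 and -0.49.

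Falls of like size that did not pass were those of Zfp988 (-0.97, edgeR adjusted p 0.0623), Zfp987 (-0.88, 0.115), Zfp979 (-0.87, 0.148), Zfp991 (-0.82, 0.0608) and Zfp758 (-0.81, 0.157). Of the 8 past the threshold the others were -1.05 for Zfp965 (SE 0.198), -1.04 for Zfp968 (SE 0.279), -1.01 for Zfp808 (SE 0.303), -0.90 for Zfp966 (SE 0.237) and -0.85 for Zfp982 (SE 0.245), with edgeR adjusted p from 0.000984 to 0.0455. Zfp965 and Zfp968 were low, at a mean of 1.81 and 1.18 CPM. The call of Zfp808 ended on leaving out any library but siLuc Set 3 experiment 1, that of Zfp982 on leaving out any but untreated Set 1 experiment 1 or siLuc Set 3 experiment 1, that of Zfp966 on leaving out untreated Set 1 experiment 3, untreated Set 3 experiment 5, siLuc Set 1 experiment 3 or siStag3 Set 1 experiment 3, and that of Zfp968 on leaving out siStag3 Set 3 experiment 5.

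The 7 rises were genes of 46.2% to 62.6% G and C, above the median member. Zfp764 (52.4% G and C) was at 4.15, 2.90, 3.34, 3.89, 4.02 and 3.47 CPM in Set 1 and 5.24, 5.83 and 5.12 in Set 3, without overlap (0.57, SE 0.121, edgeR adjusted p 0.00223). Zfp787 (62.6%) was at 6.18 to 8.10 CPM in Set 1 and 9.77, 8.44 and 10.4 in Set 3 (0.46, SE 0.0878, edgeR adjusted p 0.00101), and at 0.20 after the GC correction (adjusted p 0.0596). Zfp839 (53.9%) differed by 0.35 (SE 0.0569, edgeR adjusted p 0.000378) and Zfp866 by 0.18 (SE 0.0577, edgeR adjusted p 0.0216), and both passed after the correction, at 0.22 and 0.28. Zfp707 (0.32), Zfp821 (0.23) and Zfp710 (0.19) had edgeR adjusted p of 0.0279, 0.0465 and 0.0315 and did not pass after it, and these calls ended in 5, 7 and 6 of the 9 fits with a library left out, those without untreated Set 1 experiment 3 and without siStag3 Set 3 experiment 5 among them for each. For Zfp866 the call ended without untreated Set 3 experiment 5 or siLuc Set 3 experiment 1. Zfp809 was lower in Set 3 by -0.34 (SE 0.0624, edgeR adjusted p 0.000772), at 45.5 to 56.8 CPM against 61.8 to 72.6 in Set 1. Zfp706, Zfp819 and Zfp932 did not pass.

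The difference of siStag3 from siLuc depended on the set for 9 members (edgeR test of the interaction of group and set), beside 1.12% of all genes, and for 0 with the GC correction, beside 0.126%. In siLuc against untreated 0 members depended on the set, beside 0.0140% of all genes (0.0491% with the GC correction), and in siStag3 against untreated again 0, beside 0.00702% (0.0140% with it).

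Libraries of 1 set also differed among themselves. The median log2 deviation of the members from each gene's mean over the 9 libraries was -0.08, 0.10 and -0.32 in untreated cells, 0.17, 0.12 and 0.07 in siLuc and 0.10, 0.21 and -0.39 in siStag3. The libraries below 0 are the same 3 that had a positive tilt with GC content. After the GC correction the medians ran from -0.09 to 0.05. Before the correction the chromosome 4 run went furthest of the 6 runs of 8 or more, except in siLuc Set 3 experiment 1. There the larger chromosome 17 run was at 0.30. The chromosome 4 run was at -0.34, 0.27 and -0.82 in untreated cells and 0.32, 0.28 and 0.17 in siLuc. In siStag3 it was at 0.40, 0.49 and -0.85. After the correction it still stood at -0.21, -0.47 and -0.47 in those 3 libraries and at 0.08 to 0.27 in the other 6. The chromosome 2 run was then at 0.12, -0.20 and -0.51 in the 3 libraries, lower than the chromosome 4 run in siStag3 Set 3 experiment 5. The larger chromosome 17 run kept -0.18, -0.30 and -0.28 in the 3 libraries, while the second chromosome 17 run, at 0.02, 0.09 and 0.08, was not low there.

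**Figure D3:**
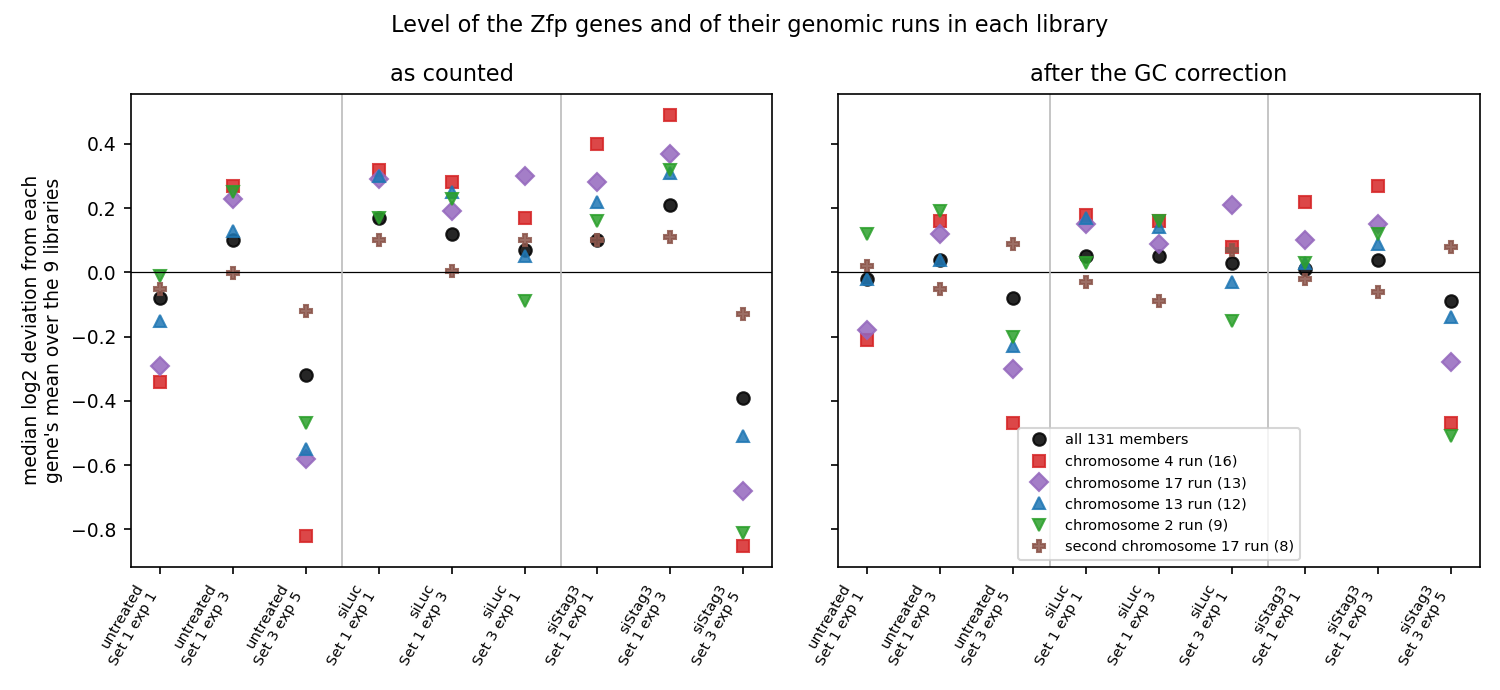
Median log2 deviation from each gene's mean over the 9 libraries (vertical axis) for all 131 members and for 5 genomic runs (symbols), in each library (horizontal axis), as counted on the left and after the GC correction on the right. The chromosome 4 run lies at -0.34, -0.82 and -0.85 in untreated Set 1 experiment 1 and the Set 3 libraries of untreated and siStag3 cells, and at -0.21, -0.47 and -0.47 after the correction.

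Counted gene by gene, 61 of 131 members (46.6%) had their 3 lowest CPM values in those 3 libraries, beside 11.8% of all genes tested and 63 of the 246 other Zfp genes. This count was made after the values were seen, and no groups were formed from it. The 3 libraries are those whose counts tilted towards high GC content, and most members are of low GC content. The same count over genes of like GC content is not given here. The pattern held for 12 of 16 members of the chromosome 4 run, 12 of 13 of the larger chromosome 17 run, 9 of 12 of the chromosome 13 run and 3 of 9 of the chromosome 2 run. After the GC correction it held for 29 members (22.1%) beside 4.29% of all genes, with 10 of 16 in the chromosome 4 run, 10 of 13 in the larger chromosome 17 run, 3 of 12 in the chromosome 13 run and 1 of 9 in the chromosome 2 run. The 5 other tested genes that lie inside the chromosome 4 run, Zfp268, Zfp534, Zfp600, Rex2 and Gm21411, had their lowest values in the same 3 libraries, and 4 of these did so after the correction. Zfp600, Rex2 and Zfp534 hold 69.8%, 45.8% and 26.2% of the 31-base sequences of the members Zfp980, Zfp981 and Zfp990. Their counts may therefore not be independent of those of the members. The part of GC content in this pattern beyond the correction was not tested, and 2 of the 3 libraries are those of experiment 5.

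Single genes of the chromosome 4 run show the range. Zfp979 was at 103, 199 and 72.5 CPM in untreated cells, 218, 197 and 211 in siLuc and 237, 250 and 71.5 in siStag3, so its highest library stood 3.49 times above its lowest. Zfp980 was at 502, 744 and 364 CPM, then 790, 763 and 767, then 826, 901 and 371. In both genes the siLuc libraries lay close together across the sets, and the siStag3 libraries of Set 1 and Set 3 lay far apart. Zfp993, of the same run, was between 61.5 and 71.1 CPM in all 9 libraries, and Zfp986, at 67.2, 56.2, 43.4, 57.9, 58.6, 38.7, 54.6, 57.1 and 41.5 CPM, was low in all Set 3 libraries. With the set covariate 0 of the 16 members passed in any comparison of treatments. In siLuc against untreated Zfp990 was at 0.79 (SE 0.379, edgeR adjusted p 0.247), Zfp988 at 0.71 (SE 0.356, adjusted p 0.260) and Zfp980 at 0.60 (SE 0.289, adjusted p 0.244).

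**Figure D4:**
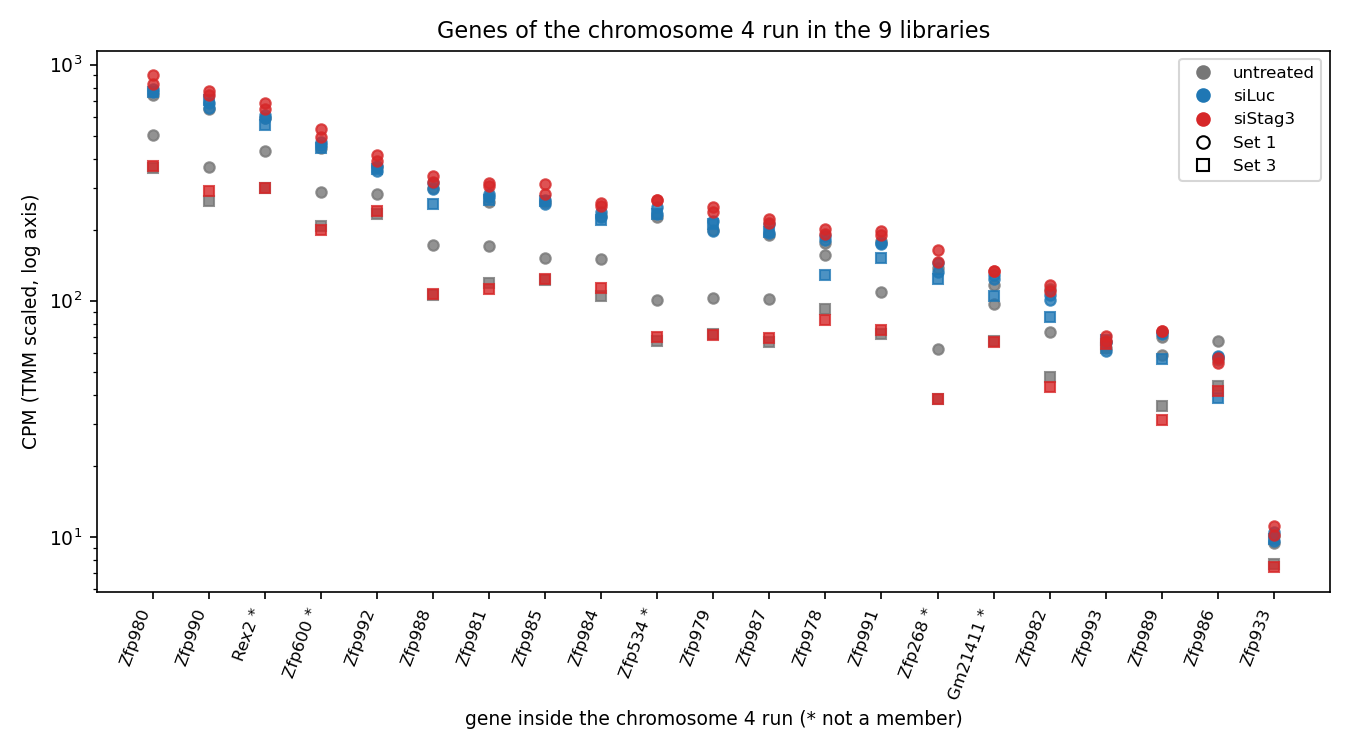
CPM (vertical axis, log scale) of the 16 members and 5 other tested genes (marked with an asterisk) inside the chromosome 4 run, 9 libraries each, with colours for the groups, circles for Set 1 and squares for Set 3. For most genes the untreated and siStag3 squares and 1 untreated circle lie below the other points, as for Zfp979 at 72.5, 71.5 and 103 CPM, and for Zfp993 all 9 points lie between 61.5 and 71.1 CPM.

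The promoters of this run were compared because most of its members (12 of 16 by the count above) moved together. RefSeq promoters (GRCm38.p6, 250 bases before to 50 after the start) were matched for 111 members, 10 of them in the run. In the 250 bases before the start, Zfp979 was 90.8% identical to Zfp980, Zfp987 85.6%, Zfp985 83.6%, Zfp988 82.4%, Zfp981 79.6% and Zfp984 74.8%, whereas Zfp933, Zfp993 and Zfp982 were 58.0%, 46.8% and 45.6% identical. The 9 bases ATTGGGCGG, read on both strands, are shared by 6 of the 10. They join ATTGG, which is the CCAAT box read on its other strand, to the GC box GGGCGG, with which it overlaps. The motif was picked after the sequences were seen. It is held by 2 of the 101 matched members elsewhere (Zfp947 and Zfp994, both of the larger chromosome 17 run) and by 0.278% of all 27025 promoters. The 40 bases around it are shown 5′ to 3′ on the gene's strand, with the motif in capitals.
Zfp980, chr4:145670613-145670652, plus strand: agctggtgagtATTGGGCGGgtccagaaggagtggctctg
Zfp981, chr4:146514814-146514853, plus strand: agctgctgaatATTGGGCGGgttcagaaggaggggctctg
Zfp988, chr4:147305547-147305586, plus strand: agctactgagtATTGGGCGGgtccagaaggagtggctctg
Zfp985, chr4:147553198-147553237, plus strand: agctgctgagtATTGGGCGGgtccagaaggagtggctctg
Zfp979, chr4:147642553-147642592, minus strand: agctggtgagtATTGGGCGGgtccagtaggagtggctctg
Zfp984, chr4:147809846-147809885, minus strand: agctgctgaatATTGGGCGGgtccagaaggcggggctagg
All 6 of these genes had their lowest values in the 3 libraries named above. Of the 4 matched promoters without these letters, that of Zfp987 reads ATTGGGCGT, which differs only in the last base. Zfp987, Zfp982 and Zfp933 had their lowest values there too and Zfp993 did not. After the GC correction all 6 still did, and of the other 4 Zfp987 did. Both Zfp947 and Zfp994 also had their lowest values there, before and after the correction. Over all matched members this makes 8 of 8 with the letters, and 44 of 103 without them before the correction and 17 of 103 after it. The 8 lie only in the chromosome 4 run and the larger chromosome 17 run, while the 103 come from all runs. Among all members of those runs the pattern held for 12 of 16 and 12 of 13, and for 10 of 16 and 10 of 13 after the correction. What the run contributes to the counts by letters was not tested. The counts by letters were made after the motif and the values were seen, and many of these promoters are copies of each other, so they are given as a description.

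A list of 37 genes, all tested, covered corepressors and silencing genes linked to KRAB proteins. It also held the zinc finger genes Zfp57 and Zfp42. Trim28, which KRAB binds, had a mean CPM of 1640 ± 114 without treatment, of 1500 ± 24.9 under siLuc and of 1560 ± 197 under siStag3 (SD, n = 3), and Setdb1, the histone methyltransferase it recruits, at 323 ± 17.7, 302 ± 10.8 and 297 ± 12.9. Neither passed in a comparison of treatments (edgeR adjusted p 0.227 to 0.892). None of the 37 passed in siStag3 against siLuc or in siLuc against untreated, and 1 did in siStag3 against untreated: Chd3, a nucleosome remodeller of the NuRD complex, fell by 0.42 on the log2 scale (SE 0.0967, edgeR adjusted p 0.0357). These counts stand beside 0.0281%, 4.20% and 2.53% of all genes in the 3 comparisons. With the GC correction the DNA methyltransferase Dnmt3b (0.16, edgeR adjusted p 0.0206) and Zfp57 (-0.20, 0.0325), a KRAB zinc finger protein of imprinted loci, passed in siLuc against untreated, beside 6.97% of all genes. Chd3 (-0.35, edgeR adjusted p 0.0102) and Pphln1 (-0.27, 0.00685), of the HUSH silencing complex, then passed in siStag3 against untreated, beside 6.75%, and again none passed in siStag3 against siLuc. Between the sets 12 of the 37 were lower in Set 3 and 4 higher, beside 21.2% and 21.4% of all genes. The GC correction gave 17 lower and 8 higher, beside 20.8% and 20.7%.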

How the data were processed

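The authors deposited whole-number counts per gene for 9 libraries. The submitters' processing notes name FastQC, Salmon, DESeq2 and the build GRCm39, with no roles. Salmon gives estimated counts, so the deposited counts may be rounded. Library kit, per the labels' protocols, was KAPA mRNA HyperPrep. Strand handling is not given in the sources used here. The smallest sum in the table is 9 counts.

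Columns were assigned to groups by name. The series calls the samples biological replicates and the labels name no separate cultures, so p-values measure the spread between these libraries. edgeR 4.0.16 (R 4.3.3) was fitted to all 9 libraries at once with group means and the set as a covariate (filterByExpr, TMM, robust glmQLFit, glmQLFTest, two-sided), with Benjamini-Hochberg adjustment over 14246 genes and a threshold of 0.05. SE were computed as absolute log2 fold change over the root of F, and CPM use the TMM factors. Differences within a set are of mean log2(CPM + 0.1). The GC correction entered the offsets as median deviations in 20 GC bins per library. The biological coefficient of variation was 7.62%, and 5.32% with the GC correction. On simulated counts for siLuc against untreated (14121 genes), 72% of genes with a true log2 change of 0.5 were called and 95% at a change of 1, and 9 of 176 calls were false. The simulation gave all genes the same spread, with a random set effect and no tilt of libraries with GC content. Its rates therefore do not carry over to members with a wider spread, such as Zfp990.

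GC content, length, chromosome, fingers, KRAB and shared 31-base sequences came from GENCODE M21 (GRCm38), which holds 16604 of the 16636 genes. The planned RefSeq proteins were not used here, and GENCODE coding sequences were translated instead. A KRAB A-box was taken as 6 or more of 8 fixed letters of the A-box within the first 250 residues (93 members had all 8). Gene coordinates are not given, since the builds differ. Promoters are from RefSeq, GRCm38.p6. Members, lists and the set covariate were chosen with earlier results of these data known.

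Always named were Zfp703, Zfp706, Zfp708, Zfp809, Zfp819, Zfp932 and Zfp982, with Trim28, Setdb1, Stag3 and corepressors past the threshold. Per comparison the 8 largest rises and 8 largest falls past the threshold were named, or the 3 smallest p where fewer than 3 passed, as were the 5 highest levels and the 2 genes on each side of the count limit. Alternatives were no set term, the GC correction, DESeq2 1.42.0, DESeq2 size factors, scaling by total count, no filter, a minimum mean of 50 counts, Set 1 alone, a non-robust fit, the 6 libraries of a comparison by themselves and leaving out each library. A block of set and experiment, the GC correction without the set term and the GC-corrected test of the difference between sets were added after the data were seen.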

Additional observations from a re-analysis of the deposited data

Results flagged for a closer look

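For 9 members the difference of siStag3 from siLuc itself differed between Set 3 and Set 1 (edgeR test of the interaction of group and set, adjusted over 14246 genes), where 1.12% of all genes did. The Set 3 value was below the Set 1 value by a log2 difference of -0.90 for Zfp935 (SE 0.160, edgeR adjusted p 0.0369), -0.89 for Zfp989 (SE 0.139, 0.0281), -0.82 for Zfp770 (SE 0.152, 0.0411), -0.76 for Zfp788 (SE 0.139, 0.0411), -0.74 for Zfp729a (SE 0.118, 0.0281), -0.73 for Zfp978 (SE 0.118, 0.0281), -0.70 for Zfp975 (SE 0.134, 0.0457), -0.60 for Zfp871 (SE 0.115, 0.0457) and -0.52 for Zfp997 (SE 0.106, 0.0492). Within Set 1 the 9 differences lay between 0.003 and 0.15, and within Set 3 between -0.87 and -0.52. Zfp770, the 1 gene of the 9 known to lack KRAB, was at 24.5 and 26.3 CPM in siLuc and 28.0 and 28.6 in siStag3 of Set 1, and at 27.4 and 17.2 CPM in Set 3. Set 3 has 1 library per group, from experiment 1 in siLuc and experiment 5 in siStag3, so set, experiment and library cannot be told apart, and the spread is taken from Set 1. With the GC correction 0 of the 9 passed, with differences of -0.41 to 0.05 (smallest adjusted p over all members 0.146), beside 0.126% of all genes. No member passed in the same test of siLuc against untreated or of siStag3 against untreated, with 26 and 15 at an unadjusted p under 0.05. DESeq2 was not run for this test.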

How the results depend on the processing

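Except for the GC correction with the set term, the member counts under alternatives are given without the share of all genes called. No member passed in siStag3 against siLuc under any alternative run. In siLuc against untreated the count of 4 was 0 with no set term, 13 with the GC correction, 24 with DESeq2, 24 with only the 6 libraries compared, 1 in Set 1 alone, 1 with the non-robust fit and 0 with the GC correction without the set term, and leaving out 1 library gave 0 to 29. In siStag3 against untreated the count of 1 was 0 with no set term, 6 with the GC correction, 2 with DESeq2, 9 in Set 1 alone and 0 with the GC correction without the set term, and leaving out 1 library gave 0 to 13. In Set 3 against Set 1 the count of 63 was 51 to 94 without a library other than the experiment 5 libraries of Set 3, and 36 to 94 over all 9 fits. The 9 differences between sets were 0 with the GC correction. The set difference of Zfp706 changed from -0.05 to 0.12 and that of Zfp932 from -0.11 to 0.21 with the GC correction. Over the 52 named fold changes, 887 of 1003 alternative values kept direction and side of the threshold, 99 lost and 15 gained a call. Many of the 52 had not passed and so had no call to lose. In siLuc against untreated the call was lost in 15 of 21 alternatives for Zfp953, 12 for Zfp938, 11 for Zfp850 and 6 for Zfp748. For Zfp869 in siStag3 against untreated it was lost in 5 of 21. Calls between the sets were lost in 0 (Zfp971 among others) to 10 alternatives (Zfp808 and Zfp821). The cause was not tested.

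No pairing by the titles' replicate numbers was possible, because the column names lack them. With set and experiment as a replicate block the counts were 0, 1, 1 and 60, in place of 0, 4, 1 and 63. Member medians kept their sign under every scaling run (total count only moved siLuc against untreated from 0.22 to 0.17 and Set 3 against Set 1 from -0.30 to -0.25). The median in siStag3 against siLuc was 0.04 in Set 1 alone, against -0.12. With 1 library left out it ran from -0.18 to 0.01, and its sign turned, at 0.01, without siLuc Set 3 experiment 1 and without siStag3 Set 3 experiment 5. The median in siLuc against untreated then ran from 0.10 (without siLuc Set 3 experiment 1) to 0.26. That in siStag3 against untreated ran from 0.04 (without siStag3 Set 1 experiment 3; 0.05 without untreated Set 1 experiment 1) to 0.18 (without siStag3 Set 3 experiment 5), and that in Set 3 against Set 1 from -0.42 (without siLuc Set 3 experiment 1) to -0.19 (without siStag3 Set 3 experiment 5). Depth limits members near 1 CPM, such as Zfp703, Zfp968 and Zfp965, and shared sequence limits the chromosome 2 and chromosome 4 runs.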
